A study of Mus musculus with 12 samples.

Results

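Meiotic recombination depends on a set of proteins that cut, signal, pair and repair DNA in spermatocytes, and the RNA of 39 genes that encode such proteins was followed here. They were chosen by name, as genes of programmed break formation, strand invasion and crossover formation, and are few among the 23502 entries of the testis table and the 51826 of the sperm table. All 39 genes were listed in both tables. The testis table held 1 entry for each of these names, and all 39 passed the filter on low counts. The sperm table held 40 entries, because Spata22 was listed in 2 rows, and 36 genes passed the filter.

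The data were poly(A) RNA-seq counts of C57BL/6J mice, from 12 libraries in 4 groups of 3 biological replicates. WT and Xap5 cKO testes were taken whole at P16 (day 16 after birth), and WT and Xap5l KO sperm were taken from the cauda epididymis at P56. Xap5l KO mice lacked Xap5l (listed as Fam50b) after CRISPR-Cas9 editing of the germ line. Xap5 cKO males carried a floxed allele of the X-linked gene Xap5 (listed as Fam50a) together with Stra8-EGFPCre, a Cre driven from Stra8, a gene of germ cells that prepare for meiosis, so that somatic testis cells kept Xap5. The testis controls are labelled WT, and the study describes its controls for this line as Xap5 fl/Y. In whole testes Xap5 fell by 0.33 on the log2 scale, from 819, 811 and 988 counts in WT libraries to 673, 616 and 651 in Xap5 cKO libraries (edgeR, adjusted p = 0.0495). In sperm Xap5l had 574, 440 and 419 counts in WT libraries against 18, 23 and 8 in Xap5l KO libraries (edgeR, log2 fold change -5.15, adjusted p = 0.0118). Xap5 was also lower in Xap5l KO sperm, with 548, 705 and 689 counts in WT against 296, 487 and 649 (edgeR, log2 fold change -0.76, adjusted p = 0.0393). Libraries held 32251198 to 36759054 counts in testes and 38881197 to 52308452 in sperm.

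In early meiotic prophase, Spo11 cuts DNA at sites that Prdm9 has marked, and the breaks set off a signal through Atm and Atr. The cut ends are trimmed to bare strands, which are coated by replication protein A and then by recombinases such as Dmc1. These filaments search the homologous chromosome and invade it, and a minority of the joined molecules is stabilised by the MutSgamma complex (Msh4 and Msh5) and resolved as crossovers by nucleases such as Mlh3. At P16 the first wave of spermatogenesis has brought mouse germ cells to pachytene, and no mature sperm have formed yet.

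Transcripts of this machinery were lower in Xap5 cKO testes almost throughout. Of the 39 members, 23 fell more than 2-fold, against 10.9% of the 16821 genes tested that were called lower by the same rule, which was an adjusted p under 0.05 in edgeR's quasi-likelihood test and a fold change above 2. None rose by that rule, against 4.15% of all genes called higher, and the count of members higher was also 0 at an unadjusted p and by DESeq2. Without the fold threshold 36 members were lower (28.1% of all genes) and 0 were higher (25% of all genes). The median log2 fold change of the members was -1.25, with quartiles of -1.61 and -0.76, while that of all genes tested was -0.01. The 3 members that did not pass were Sfr1, Rpa3 and Mus81.

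Library by library, the members together took 4450, 4490 and 4060 CPM (counts scaled to the depth of each library, with TMM-adjusted library sizes) in WT testes and 1910, 1950 and 1890 CPM in Xap5 cKO testes. Relative to the WT mean, the median member stood at log2 values of 0.04, 0.05 and -0.09 in WT testes, whereas those of Xap5 cKO mice stood at -1.26, -1.22 and -1.27. For 37 of 39 members the libraries of one genotype lay in CPM wholly on one side of the other genotype, which was true of 62.3% of all genes tested. WT replicate 3 stood apart from the other WT libraries and gave the lowest WT value for 26 of the 39 members. Xap5l had 197 counts in it against 532 and 539 in the other WT testes. In Xap5 cKO testes Xap5l had 6, 0 and 7 counts (edgeR, log2 fold change -6.48, adjusted p = 8.09e-05), so its transcript was near 0 there too. Leaving this library out left 23 members lower and gave a median of -1.31.

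**Figure D1:**
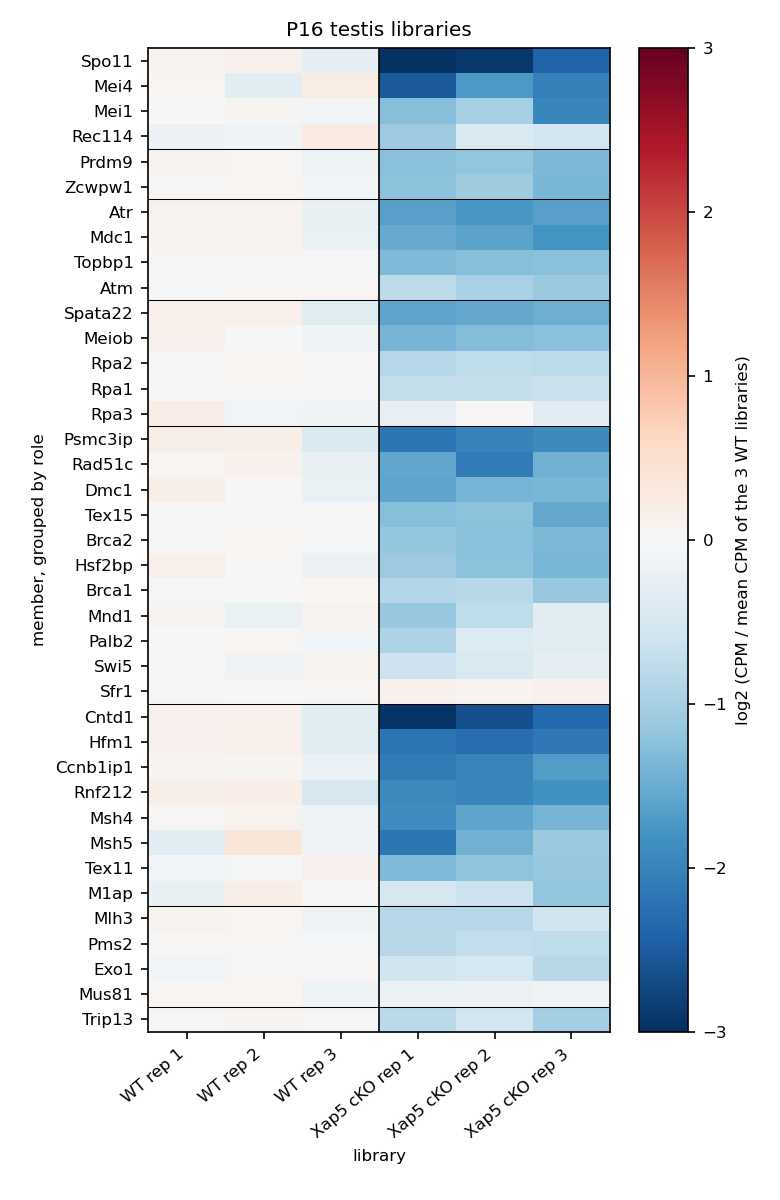
Level of each member in each P16 testis library, as the log2 ratio of its CPM to the mean CPM of the 3 WT libraries, with members in rows grouped by role and libraries in columns. The 3 Xap5 cKO columns are lower for nearly every member, with medians of -1.26, -1.22 and -1.27, while the row of Sfr1 is slightly higher.

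Markers of cell types also differed between the genotypes, with lower medians for spermatocytes and higher medians for several somatic cell types. Over all genes tested 10.9% were called lower and 4.15% higher. The summed markers of leptotene and zygotene spermatocytes went from 3090 to 3650 CPM in WT testes to 1380 to 1770 CPM in Xap5 cKO testes, with 11 of 13 genes lower and a median log2 fold change of -1.26. Pachytene markers had 1550, 1560 and 905 CPM in WT replicates 1, 2 and 3 and 258 to 324 CPM in Xap5 cKO testes, and 7 of 11 were lower (median -2.07). Spermatogonial markers had a median of -0.52, with 3 of 10 genes lower. Their summed level was 1230 to 1290 CPM in WT against 632 to 653 CPM in Xap5 cKO testes. Most of that fall lay in Ddx4, a germ cell helicase and their most abundant gene, with mean levels of 512 and 110 CPM. Ddx4 fell by 2.21 on the log2 scale (edgeR, adjusted p = 6.8e-06), while Gfra1 of the same list rose by 0.56 (edgeR, adjusted p = 0.0321). Sertoli markers had 5650 to 6100 CPM in WT and 9560 to 11100 CPM in Xap5 cKO testes, with a median of 0.78. The medians were 1.06 for Leydig cells (4 of 7 higher), 1.02 for leukocytes (4 of 6 higher) and 0.33 for peritubular myoid cells, and -1.53, -0.86 and -0.30 for round spermatids, elongating spermatids and epididymal epithelium, which had 6, 1 and 3 genes tested. Prm2, which defines elongating spermatids, was at 0 in every testis library. In bulk RNA, fewer cells of a type and less RNA per cell cannot be told apart, and the part of these shifts in the values of the recombination genes was not tested.

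**Figure D2:**
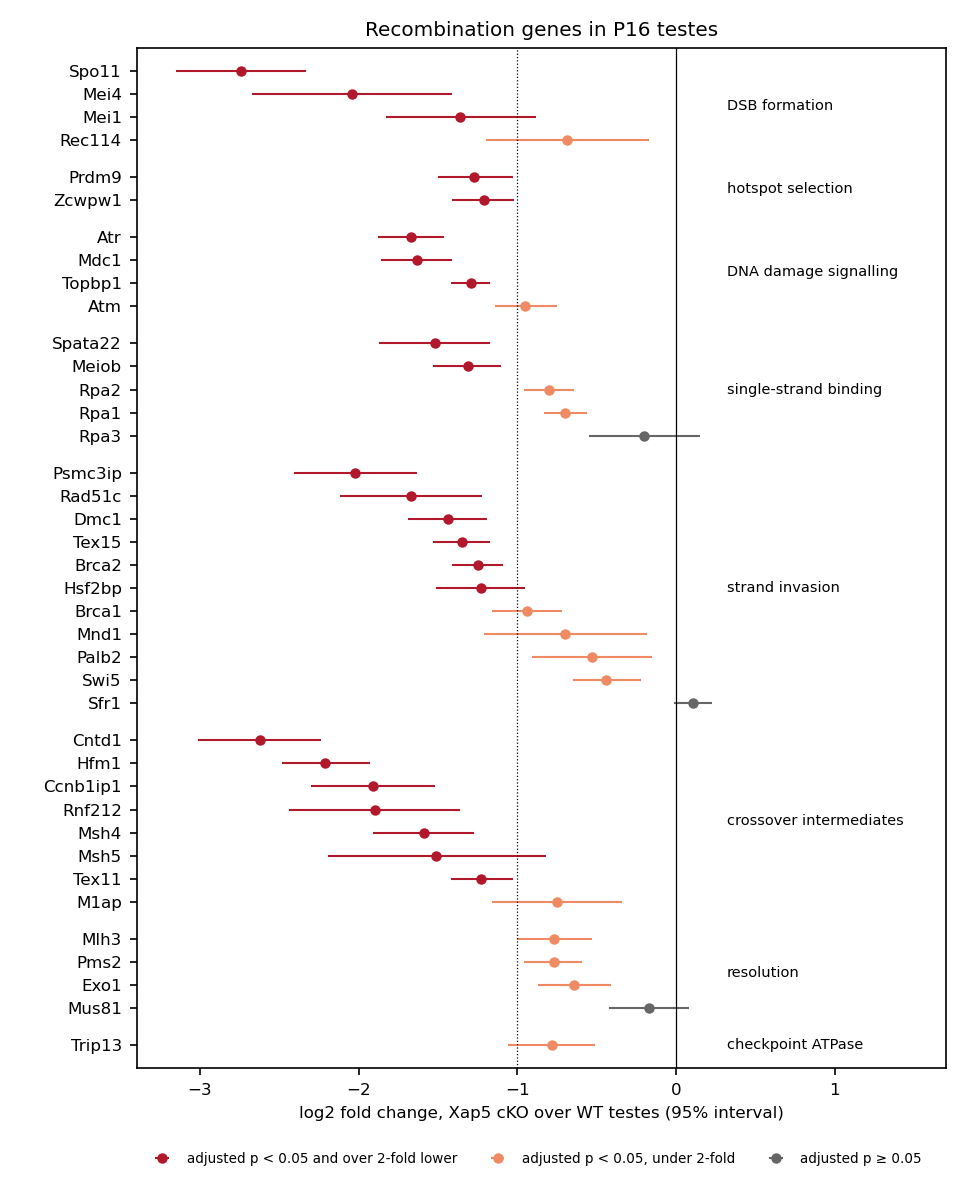
Log2 fold change of each member in Xap5 cKO over WT testes of P16 mice, grouped by role (3 libraries per genotype). The 95% intervals were derived from the F statistic of edgeR's test. Break formation and crossover genes reach furthest to the left, with Spo11 at -2.74 and Cntd1 at -2.62, and the genes of resolution lie between -0.77 and -0.17.

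Break formation held the member with the greatest fall. Spo11, the topoisomerase-like enzyme that makes the breaks (chr2:172977700-172993576 of GRCm38, plus strand), had 1724, 1905 and 1440 counts in WT testes against 196, 218 and 296 in Xap5 cKO testes. Every WT library was thus far above every Xap5 cKO library. The log2 fold change was -2.74 (SE 0.181, 95% interval -3.15 to -2.33, edgeR adjusted p = 1.27e-05). Mei4, a partner that loads the break machinery on chromosome axes, had 265, 223 and 319 counts against 43, 79 and 62, a log2 fold change of -2.04 (SE 0.277). Mei1, which is also needed for breaks to form, had 1348, 1545 and 1369 counts against 530, 689 and 340 (log2 fold change -1.36, SE 0.211). The groups did not overlap for either gene. Rec114, the partner of Mei4, passed the test with a smaller change of -0.69 (edgeR, adjusted p = 0.0309). Without 1 of the libraries its adjusted p ranged from 0.0399 to 0.101.

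The transcript of Spo11 fell further than that of Dmc1, so the 2 genes were also set against each other within each library, where normalization has no effect. The study followed both genes by RT-PCR, and its primers are shown because they mark the exons that it measured. The primers of each pair lie in adjacent exons of GENCODE transcripts (GRCm38), in 4 of 5 annotated Spo11 transcripts (141 bases) and 3 of 5 Dmc1 transcripts (91 bases).
Spo11 forward, chr2:172984024-172984043: attctgtcggccttcggatg
Spo11 reverse, chr2:172984909-172984931: ttgcataagtgtcgctctgtatt
Dmc1 forward, chr15:79602430-79602451: atgaaggaggatcaagttgtgc
Dmc1 reverse, chr15:79601522-79601542: catgcttctgcaacaggtcaa

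Counts of Spo11 per count of Dmc1 were 0.481, 0.545 and 0.483 in WT testes against 0.191, 0.176 and 0.242 in Xap5 cKO testes. Cntd1 per Dmc1 was 1.85, 2.07 and 1.76 in WT against 0.734, 0.794 and 0.962 in Xap5 cKO testes. Hfm1 per Dmc1 was 1.86, 2.11 and 1.77 against 1.25, 1.03 and 1.11. Each of these ratios was lower in all 3 Xap5 cKO libraries than in any WT library. Prdm9 per Dmc1 was 0.49, 0.517 and 0.529 in WT against 0.636, 0.581 and 0.516 in Xap5 cKO testes, and Meiob per Dmc1 was 0.706, 0.708 and 0.768 against 0.824, 0.763 and 0.784. The genotypes overlapped for these 2 ratios. Rpa2 per Dmc1 went up, from 0.845, 1.01 and 1.13 to 1.62, 1.52 and 1.45. Sfr1 per Dmc1 went up most of the genes shown, from 1.99, 2.28 and 2.7 to 7.44, 6.35 and 6.41. Relative to Dmc1, these transcripts thus did not all fall in the same proportion. An exact permutation test of 3 against 3 libraries could not have given a p below 0.1 for such a ratio, and none was run.

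**Figure D3:**
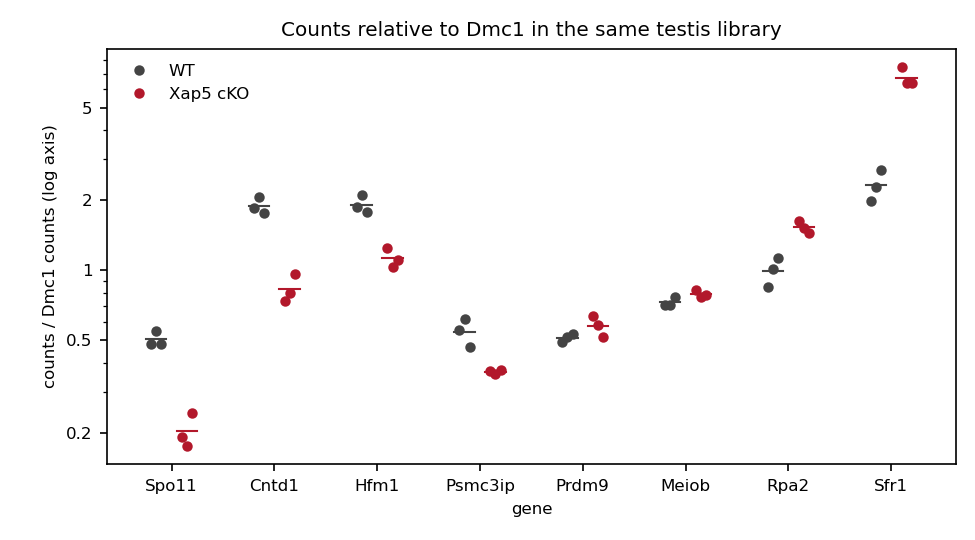
Counts of 8 members divided by the counts of Dmc1 in the same P16 testis library, on a log axis, with a point per library and a line at the mean of 3. Spo11, Cntd1, Hfm1 and Psmc3ip are lower relative to Dmc1 in all Xap5 cKO libraries, Prdm9 and Meiob overlap, and Rpa2 and Sfr1 are higher.

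The hotspot genes fell by similar amounts. Prdm9, the zinc-finger methyltransferase that marks where breaks are made (chr17:15543079-15564354, minus strand), had 1756, 1805 and 1577 counts in WT testes against 652, 721 and 630 in Xap5 cKO testes, which gave a log2 fold change of -1.27 (SE 0.104). Zcwpw1, which reads the methylation that Prdm9 leaves, had 5661, 6274 and 5565 counts against 2259, 2687 and 2122 (log2 fold change -1.21, SE 0.0857). Neither gene's genotypes overlapped, and the 95% intervals of their changes, -1.50 to -1.03 and -1.41 to -1.02, covered much the same range.

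Of the DNA damage signalling genes, 3 of 4 were called lower (10.9% of all genes). Atr, the kinase that answers bare single strands and unpaired chromosome axes, had 22533, 24377 and 19062 counts in WT testes, the most of its group, and 6502, 6330 and 6607 in Xap5 cKO testes. Its log2 fold change was -1.67 (SE 0.0936, edgeR adjusted p = 8.8e-06). Mdc1, the adaptor that spreads the damage mark along the sex chromosomes, had 8807, 9477 and 7665 counts against 2752, 2740 and 2343 (log2 fold change -1.63, SE 0.0999). Topbp1, the activator of Atr, had 11536, 12527 and 11544 counts against 4310, 4693 and 4598 (log2 fold change -1.29, SE 0.0556), and its adjusted p of 6.8e-06 in edgeR was the smallest of the members. The genotypes stayed apart by more than 2-fold for all 3. Atm, the kinase that responds to the breaks themselves, fell by 0.95 on the log2 scale, just short of 2-fold (SE 0.0862, edgeR adjusted p = 3.89e-05), and passed 2-fold without Xap5 cKO replicate 1, where its value was -1.03.

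Within the group that binds single strands, the meiosis-specific genes and the general ones differed in size of change. Meiob had 2533, 2474 and 2289 counts in WT testes against 845, 948 and 957 in Xap5 cKO testes (log2 fold change -1.31, SE 0.0955). Its partner Spata22 had 1277, 1389 and 961 counts against 369, 405 and 411 (log2 fold change -1.52, SE 0.157). These proteins form a complex on meiotic DNA that resembles replication protein A, and neither overlapped between genotypes. The subunits of replication protein A itself, which every dividing cell uses, changed less. Rpa1 had 4068, 4478 and 4177 counts against 2370, 2507 and 2468 (log2 fold change -0.70, 95% interval -0.83 to -0.56). Rpa2 fell by 0.80 (interval -0.96 to -0.64), and both stayed under 2-fold. Rpa3 gave -0.20 (interval -0.55 to 0.15, edgeR adjusted p = 0.314), and its libraries overlapped.

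Strand invasion was the largest group, and 6 of its 11 genes fell more than 2-fold (10.9% of all genes). Dmc1, the meiotic recombinase (chr15:79561497-79605109, minus strand), had 3586, 3494 and 2979 counts in WT testes against 1025, 1242 and 1221 in Xap5 cKO testes. The fall of about the same size in each library gave a log2 fold change of -1.44 (SE 0.11, edgeR adjusted p = 2.18e-05). Psmc3ip (HOP2), which with Mnd1 helps Dmc1 to invade the homologue, had 1981, 2147 and 1388 counts against 376, 446 and 454 (log2 fold change -2.02, SE 0.173). The WT libraries of Psmc3ip spread more than those of Dmc1, with replicate 3 lowest, yet stayed far above all Xap5 cKO libraries. Mnd1, its obligate partner, gave -0.70 (95% interval -1.21 to -0.18, edgeR adjusted p = 0.0277), and its interval did not reach that of Psmc3ip (-2.41 to -1.63). With 1 library left out the adjusted p of Mnd1 ranged from 0.00722 to 0.0945.

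The mediators that load recombinases also fell. Brca2, which delivers recombinase to bare strands, had 6332, 7180 and 6499 counts in WT testes against 2731, 2691 and 2450 in Xap5 cKO testes (log2 fold change -1.25, SE 0.0701). Hsf2bp, a meiotic partner of Brca2, had 1669, 1619 and 1413 counts against 668, 639 and 571 (log2 fold change -1.23, SE 0.122). Rad51c, a recombinase-like protein of homologous repair, had 778, 891 and 692 counts against 243, 177 and 271 (log2 fold change -1.67, SE 0.2). No genotype overlapped with the other in these genes. Tex15, needed for recombinase loading and also for silencing of retrotransposons in fetal germ cells, had 18214, 20059 and 19965 counts against 7225, 7963 and 6213 (log2 fold change -1.35, SE 0.0792). Brca1, which acts earlier on the cut ends, gave -0.94 (edgeR, adjusted p = 7.27e-05), and Palb2, which links Brca1 with Brca2, gave -0.53 (adjusted p = 0.0254 in edgeR, and up to 0.0774 with 1 library left out).

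Swi5 and Sfr1 form a small complex that stabilises recombinase filaments. Swi5 fell by 0.44 on the log2 scale (SE 0.0938, edgeR adjusted p = 0.0038). Sfr1 had 7144, 7956 and 8041 counts in WT testes against 7623, 7882 and 7822 in Xap5 cKO testes, which gave a log2 fold change of 0.11 (95% interval -0.01 to 0.23, edgeR adjusted p = 0.104). It was the sole member with a value above 0, and its libraries overlapped in counts but not in CPM. Per length it was also the most abundant member, at 114 ± 2.82 CPM per kb of exon in WT and 123 ± 1.79 in Xap5 cKO testes (SD, n = 3). Next among the plain entries of WT testes came Tex15 with 57.1 ± 0.664 CPM per kb. Cntd1 followed with 40.9 ± 6.86 and Dmc1 with 39.1 ± 4.93, and these 2 did not differ beyond their spread. Mei4 and the plain entry of Msh5 were at the lower end, with 1.85 ± 0.338 and 1.79 ± 0.456 CPM per kb. Further numbered entries are listed for Mdc1, Msh5, Spata22, Rad51c and M1ap, and their counts are not in these levels. In WT testes Msh5 had 9.88 CPM, while Msh5-2, Msh5-3 and Msh5-4 had 7.5, 13 and 13.4 CPM. The places of these genes in the order are therefore not settled.

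Promoter sequences of 4 strand-invasion genes are shown because their transcripts spanned the range of the group, at -2.02 for Psmc3ip, -1.44 for Dmc1, -0.70 for Mnd1 and 0.11 for Sfr1. They are from RefSeq (GRCm38.p6), 5′ to 3′ on the strand of the gene, up to 250 bases that end before the start site and before the GENCODE gene. Capitals mark GGGCGG (GC box) and GCGGGA (core of an E2F site), searched on both strands, so that they also read CCGCCC or TCCCGC. The 2 motifs can overlap.
Psmc3ip, chr11:101095437-101095685, minus strand: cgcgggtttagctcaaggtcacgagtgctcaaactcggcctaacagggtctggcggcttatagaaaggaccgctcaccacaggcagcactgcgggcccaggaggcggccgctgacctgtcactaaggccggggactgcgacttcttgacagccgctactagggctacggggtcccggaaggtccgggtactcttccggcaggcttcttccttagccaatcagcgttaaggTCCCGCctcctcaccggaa
Dmc1, chr15:79605110-79605359, minus strand: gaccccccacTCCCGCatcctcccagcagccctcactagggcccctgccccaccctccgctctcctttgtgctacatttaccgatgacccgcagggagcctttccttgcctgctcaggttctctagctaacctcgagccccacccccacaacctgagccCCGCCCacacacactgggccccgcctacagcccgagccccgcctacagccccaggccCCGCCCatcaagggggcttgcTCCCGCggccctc
Mnd1, chr3:84155787-84156036, minus strand: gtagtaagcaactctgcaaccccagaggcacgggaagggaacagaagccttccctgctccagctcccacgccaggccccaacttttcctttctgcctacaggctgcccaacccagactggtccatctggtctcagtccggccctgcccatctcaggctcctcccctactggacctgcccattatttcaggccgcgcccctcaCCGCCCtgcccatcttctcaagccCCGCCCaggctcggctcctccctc
Sfr1, chr19:47731506-47731681, plus strand: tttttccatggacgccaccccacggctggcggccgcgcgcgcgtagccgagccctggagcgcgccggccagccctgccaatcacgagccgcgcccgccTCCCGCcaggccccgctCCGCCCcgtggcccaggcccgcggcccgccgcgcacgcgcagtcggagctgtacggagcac

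In windows from 250 bases before to 50 bases after each start site, 34 of the 39 members had a RefSeq entry. Searched on both strands, the E2F core was present in 61.8% of them and in 22.0% of all 27025 genes with a window, and the GC box in 64.7% against 38.2%. Members that fell more than 2-fold in testes held the E2F core in 63.2% and the other members in 60.0%, so its presence did not separate them. The corresponding shares were 63.2% and 66.7% for the GC box. CACGTG (E-box) was found in 11.8% of members and 8.09% of all genes, and TGACGT (core of a CRE site) in 17.6% and 8.37%. CNGTTA (core of a MYB site) was in 17.6% of members and 25.9% of all genes, with 5 of the 19 members that fell more than 2-fold and 1 of the other 15 holding it, a difference that was not tested. The member windows had a median GC content of 59.7%, and all windows 52.7%. A match says only that the letters are present.

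Of the genes that build and protect crossover intermediates, 7 of 8 fell more than 2-fold (10.9% of all genes). Their median was -1.75, close to the -1.70 of the 4 break formation genes. Cntd1, a cyclin-like protein needed to turn intermediates into crossovers (chr11:101279012-101296317, plus strand), had 6643, 7243 and 5243 counts in WT testes against 752, 986 and 1175 in Xap5 cKO testes. Its log2 fold change of -2.62 (SE 0.17, 95% interval -3.01 to -2.24, edgeR adjusted p = 1.21e-05) was close to that of Spo11. Of its 4421 exonic bases 3104 overlap Becn1 on the other strand, and the use of strand in counting is not stated, so reads of the 2 genes could not be told apart there. Becn1 itself gave a log2 fold change of -0.29.

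Hfm1, the helicase that works on joined molecules, had 6667, 7372 and 5279 counts in WT testes against 1286, 1276 and 1352 in Xap5 cKO testes (log2 fold change -2.21, SE 0.122). Ccnb1ip1 (HEI10), a ubiquitin ligase that marks future crossovers, had 769, 827 and 679 counts against 161, 185 and 220 (log2 fold change -1.91, SE 0.172). Rnf212, a SUMO ligase that acts with it, had 393, 434 and 267 counts against 88, 91 and 96 (log2 fold change -1.90, SE 0.238). In all 3 genes the lowest WT library was replicate 3, and it was still more than 2-fold above the highest Xap5 cKO library. Msh4 had 1470, 1668 and 1373 counts against 380, 483 and 537 (log2 fold change -1.59, SE 0.141). Its partner in MutSgamma, Msh5, had 261, 462 and 331 counts against 71, 124 and 150 (log2 fold change -1.51, SE 0.303). The changes of these partners lay well within each other's 95% intervals, -1.91 to -1.27 and -2.19 to -0.82.

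Tex11, the only X-linked member, promotes crossovers and synapsis, and had 4412, 4904 and 5519 counts in WT testes against 1784, 2049 and 2093 in Xap5 cKO testes (log2 fold change -1.23, SE 0.0849). Its value was close to the member median, and WT replicate 3 was here the highest WT library. M1ap, which joins the same set of crossover proteins, had a log2 fold change of -0.75 (edgeR, adjusted p = 0.00696) and did not reach 2-fold. The testis table lists further numbered entries for M1ap and 4 other members. M1ap-2 had 728, 738 and 796 counts in WT against 192, 337 and 364 in Xap5 cKO testes, which gave a log2 fold change of -1.25, while Mdc1-2, Mdc1-3, Msh5-2, Msh5-3, Rad51c-2 and Spata22-2 lay between -1.75 and -1.20 and Msh5-4 was at -0.87. What separates the numbered entries from the plain ones is not stated, and summing the entries of a gene changed no call of a member.

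The 4 genes of resolution had a median of -0.70, and 0 of them reached 2-fold, by edgeR, at an unadjusted p or by DESeq2. Over all genes tested 10.9% were called lower by edgeR, and in a group of 4 a count of 0 is near that share. Mlh3, an endonuclease that resolves crossover intermediates, had 2390, 2505 and 2143 counts in WT testes against 1187, 1253 and 1435 in Xap5 cKO testes (log2 fold change -0.77, SE 0.105). Pms2, a mismatch repair endonuclease, also gave -0.77 (interval -0.96 to -0.59), and the exonuclease Exo1, which has a structural part in crossing over, gave -0.64 (interval -0.87 to -0.41). These 3 genes passed an adjusted p of 0.05 in edgeR without overlap of the genotypes. Mus81, a nuclease of the minor crossover pathway, gave -0.17 (interval -0.42 to 0.08, edgeR adjusted p = 0.232), with overlapping libraries. Trip13, the ATPase that takes HORMA-domain proteins off synapsed axes, had 1553, 1817 and 1649 counts against 864, 1090 and 774 (log2 fold change -0.78, SE 0.122).

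Grouped by where the genes are known to be used, a division made after these values were seen, 18 of 21 members used mainly in germ cells fell more than 2-fold, with a median of -1.44. Of 18 members that dividing somatic cells also use, 5 fell more than 2-fold and the median was -0.78. Both shares were above the 10.9% of all genes that were called lower. The 5 were Atr, Mdc1, Topbp1, Brca2 and Rad51c. The exceptions among the germ cell genes were Rec114, Mnd1 and M1ap. The germ cell group spanned -2.74 to -0.69 and the other -1.67 to 0.11, so the ranges overlapped.

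A wider list of 60 recombination genes outside the 39 pointed the same way. In testes 59 were found and tested, 24 fell more than 2-fold (10.9% of all genes) and 48 were lower at an adjusted p of 0.05 in edgeR without the fold threshold (28.1% of all genes), with a median of -0.82. None was called higher by edgeR or by DESeq2, and no gene of the list exceeded 2-fold upward at any p, the sole value above 0 being 0.34 for the checkpoint clamp gene Rad9a. The greatest falls were those of the translocase gene Rad54b and of Prr19, the partner of Cntd1, both at -1.87, followed by Fancd2 of the Fanconi anaemia pathway (-1.81), 4930432K21Rik (Brme1, a partner of Hsf2bp and Brca2, -1.70), Mcmdc2 (-1.63) and Ankrd31 (-1.61), which acts with Rec114. Rad54b had 1352, 1622 and 1236 counts in WT against 339, 313 and 420 in Xap5 cKO testes, with no overlap. Hormad1 stands both in this list and among the leptotene and zygotene markers.

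Counting leaves some members less certain than others. By the GENCODE annotation of GRCm38, 15 of the 39 members share exonic bases with another gene and 24 do not. Beside Cntd1 the share was greatest for Spata22, with 1025 of 1274 exonic bases in common with Gm49340 on the same strand. It was smaller for Psmc3ip (385 of 1818, with Mlx on the other strand) and Rec114 (344 of 1277, with Nptn on the other strand). Mlx gave 0.24 and Nptn 0.35 on the log2 scale, opposite in sign to the members beside them.

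In mature sperm the recombination transcripts were scarce. They took 0.0357% to 0.0545% of the counts of a sperm library and 0.189% to 0.445% of a testis library, in tables that were normalized separately. Crisp1, a product of the epididymal epithelium, was at 6200 ± 1020 CPM in WT sperm (SD, n = 3). Cd52, listed here with the leukocyte markers and also made by that epithelium, was at 3990 ± 308 CPM. Dmc1 had 16, 27 and 20 counts in WT sperm against 14, 25 and 37 in Xap5l KO sperm. Spo11 had 122, 124 and 105 counts against 132, 240 and 172 (log2 fold change 0.31, 95% interval -0.32 to 0.94, edgeR adjusted p = 0.451). The libraries of both genotypes overlapped for both genes. The 95% interval of the change in Dmc1 ran from -0.97 to 0.85, so at these counts changes within it were not excluded.

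In the Xap5l KO comparison 2 of 36 members tested rose more than 2-fold (7.59% of the 20945 genes tested were called higher). None fell by that rule (1.27% were called lower), either in edgeR, at an unadjusted p or in DESeq2. Without the fold threshold 4 members were higher (9.02% of all genes) and 1 was lower (3.07% of all genes). The genotypes did not overlap for 12 of 36 members, near the 38.3% of all genes. The median log2 fold change of the members was 0, with 18 above and 18 below it, and that of all genes was -0.08. As a set the members thus stood near the background of the table, and the results are those of a few genes.

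Tex15 rose most. It had 308, 323 and 311 counts in WT sperm against 866, 1370 and 778 in Xap5l KO sperm, which gave a log2 fold change of 1.40 (SE 0.276, 95% interval 0.79 to 2.02, edgeR adjusted p = 0.0182). Psmc3ip had 320, 429 and 415 counts against 723, 1299 and 869, a log2 fold change of 1.03 (SE 0.222, interval 0.54 to 1.53, edgeR adjusted p = 0.0219). For both genes the lowest Xap5l KO library lay above the highest WT library, on the scale of counts and of CPM. Both calls held without WT replicate 1 or Xap5l KO replicate 3 and were lost without WT replicate 2 or 3 or without Xap5l KO replicate 1 or 2, with adjusted p-values of up to 0.0968 for Tex15 and 0.114 for Psmc3ip. The call of Psmc3ip was also lost when libraries were scaled by size alone.

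Brca2 and Hsf2bp rose by less than 2-fold. Brca2 had 217, 225 and 219 counts in WT sperm against 431, 548 and 500 in Xap5l KO sperm (log2 fold change 0.89, SE 0.232, edgeR adjusted p = 0.0387). Hsf2bp had 188, 155 and 213 counts against 318, 590 and 390 (log2 fold change 0.92, SE 0.259, edgeR adjusted p = 0.0477). Neither pair of groups overlapped. With 1 library left out the adjusted p of these genes went up to 0.166 and 0.189, and without WT replicate 1 or Xap5l KO replicate 3 both passed 2-fold. Swi5 was the member that fell, from 5448, 8679 and 8041 counts to 4074, 5537 and 5261 (log2 fold change -0.83, SE 0.218, edgeR adjusted p = 0.0393), and its adjusted p went up to 0.171 under the alternatives.

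**Figure D4:**
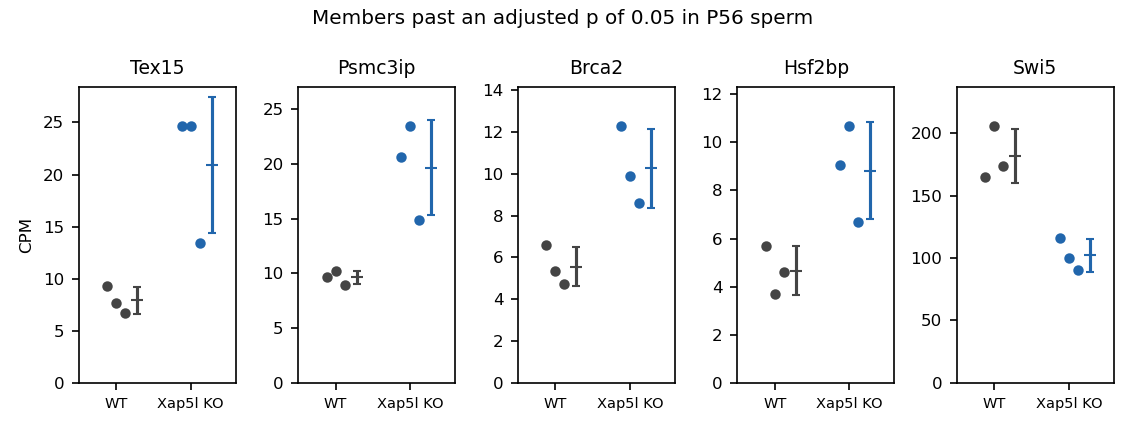
CPM of the 5 members past an adjusted p of 0.05 (edgeR) in P56 sperm, with a point per library and the mean ± SD of 3 libraries beside the points. Tex15, Psmc3ip, Brca2 and Hsf2bp are higher and Swi5 is lower in Xap5l KO sperm, without overlap of the genotypes.

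Markers of round spermatids were also higher in Xap5l KO sperm. All 8 rose more than 2-fold (7.59% of all genes), with a median log2 fold change of 1.57. Their summed level was 120 to 174 CPM in WT and 279 to 494 CPM in Xap5l KO sperm. Acr overlapped between the genotypes, at 29.6, 20.5 and 24.6 CPM in WT against 117, 92.9 and 25.3 CPM in Xap5l KO sperm. Over the whole table, leaving out 1 library gave 1 to 2402 genes higher, and the marker calls were not examined in that way. Among 11 pachytene markers 5 rose (median 0.64), and the most abundant, Adam3, gave 1.23. The leptotene and zygotene markers had a median of 0.41, with 3 of 12 tested genes higher, and spermatogonial markers 0.17. Elongating spermatid markers gave 0.60, with 1 of 8 higher. Their summed levels overlapped, at 30600 to 63200 CPM in WT and 34400 to 55800 CPM in Xap5l KO sperm. The medians were -0.44 for epididymal epithelium, -0.86 for leukocytes, -0.63 for Sertoli cells (1 of 7 lower), -1.30 for Leydig cells and 0.14 for peritubular myoid cells. The summed Sertoli markers went the other way from their median, at 649 to 764 CPM in WT and 1060 to 1330 CPM in Xap5l KO sperm, most of it from Clu (log2 fold change 0.81, edgeR adjusted p = 0.0703). The summed epididymal markers took 6770 to 9170 CPM in WT and 4810 to 6860 CPM in Xap5l KO sperm. Mitochondrial genes took 19.3% to 24% of the counts of WT libraries and 10.5% to 27.4% of those of Xap5l KO libraries, and leaving them out changed no call of a member. The part of these shifts in the values of Tex15, Psmc3ip, Brca2, Hsf2bp and Swi5 was not tested.

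The other members in sperm did not pass the test, and their values are given by role. Among the break formation genes Mei1 was at 0.45 and Rec114 at 0.33, and Mei4, with at most 4 counts in a library, was not tested. Of the hotspot genes Prdm9 gave -0.08, and Zcwpw1, with 184, 266 and 208 counts in WT sperm against 139, 284 and 376 in Xap5l KO sperm, gave -0.07. Mdc1 was the damage signalling gene with most CPM in sperm, at 1045, 1312 and 1557 counts against 1286, 2157 and 1062 (log2 fold change -0.04), while Atm, Atr and Topbp1 gave -0.44, -0.17 and -0.45. These groups overlapped in every gene but Rec114 and Topbp1.

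Rpa1 had 1078, 945 and 970 counts in WT sperm against 805, 1680 and 1227 in Xap5l KO sperm (log2 fold change -0.03), Rpa2 gave -0.29, Rpa3 -0.65 and Meiob -0.13. Spata22 and Ccnb1ip1, at 0 to 23 counts, were not tested. In the strand-invasion group Sfr1 gave -0.22, with 742 to 2184 counts, and Mnd1, Brca1, Palb2 and Rad51c lay between -0.27 and 0.21. The crossover genes Rnf212, Tex11, Msh4 and Msh5 gave 0.85, 0.59, 0.56 and 0.52 from few counts, Hfm1 gave 0.32 and Cntd1 0.03. M1ap was abundant but variable, with 3251, 1882 and 1910 counts in WT against 1669, 2328 and 3992 in Xap5l KO sperm (log2 fold change -0.22). Of the resolution genes Mus81 had 430, 554 and 584 counts against 587, 877 and 871 (log2 fold change 0.29, edgeR adjusted p = 0.277), and Mlh3, Pms2 and Exo1 gave -0.79, -0.27 and 0.12. Trip13 had 33, 38 and 47 counts against 22, 74 and 81 (log2 fold change 0.21).

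Per length the order of the members in sperm was unlike that in testes. Swi5 led in WT sperm with 32.7 ± 3.9 CPM per kb, followed by M1ap with 27.8 ± 14.5 and Sfr1 with 20.3 ± 3.75 (SD, n = 3), and the SD of M1ap covered both of its neighbours. Psmc3ip followed at 5.29 ± 0.343 CPM per kb. Dmc1, among the leading members in testes, was at 0.213 ± 0.0448 CPM per kb in WT sperm. Tex15 was next to Sfr1 among the plain entries in WT testes. In sperm it was at 0.822 ± 0.138 CPM per kb in WT and 2.18 ± 0.683 in Xap5l KO libraries.

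The 4 members that rose in Xap5l KO sperm were all among the 23 members that fell more than 2-fold in Xap5 cKO testes. These 23 were out of 39 members in all, and whether the overlap exceeded that share was not tested. Swi5, the member that fell in sperm, also fell in testes by less than 2-fold. Of the 23 members lower in testes, 16 did not pass the test in sperm and 3 were not tested there. Tex15 stood at -1.35 in testes and 1.40 in sperm, Psmc3ip at -2.02 and 1.03, Brca2 at -1.25 and 0.89, and Hsf2bp at -1.23 and 0.92. Spo11 and Cntd1, lowest in testes, stood at 0.31 and 0.03 in sperm. The tissues, ages and targeted genes differ between the comparisons, although Xap5l was near 0 in both knockouts. Xap5 was lower in both by less than 2-fold, at an adjusted p in edgeR of 0.0495 in testes and 0.0393 in sperm. The difference of the members' changes between the comparisons was not tested. Of the wider list 54 genes were tested in sperm, where Fancd2 rose (log2 fold change 1.08, edgeR adjusted p = 0.0258) and the ubiquitin ligase gene Rnf8 fell (-1.12, edgeR adjusted p = 0.0236), with a median of 0.07. Both calls were lost with libraries scaled by size alone and without WT replicate 2 or 3 or Xap5l KO replicate 1 or 2, where 0 genes of the list were called, and that of Fancd2 also with the replicate number as a block.

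**Figure D5:**
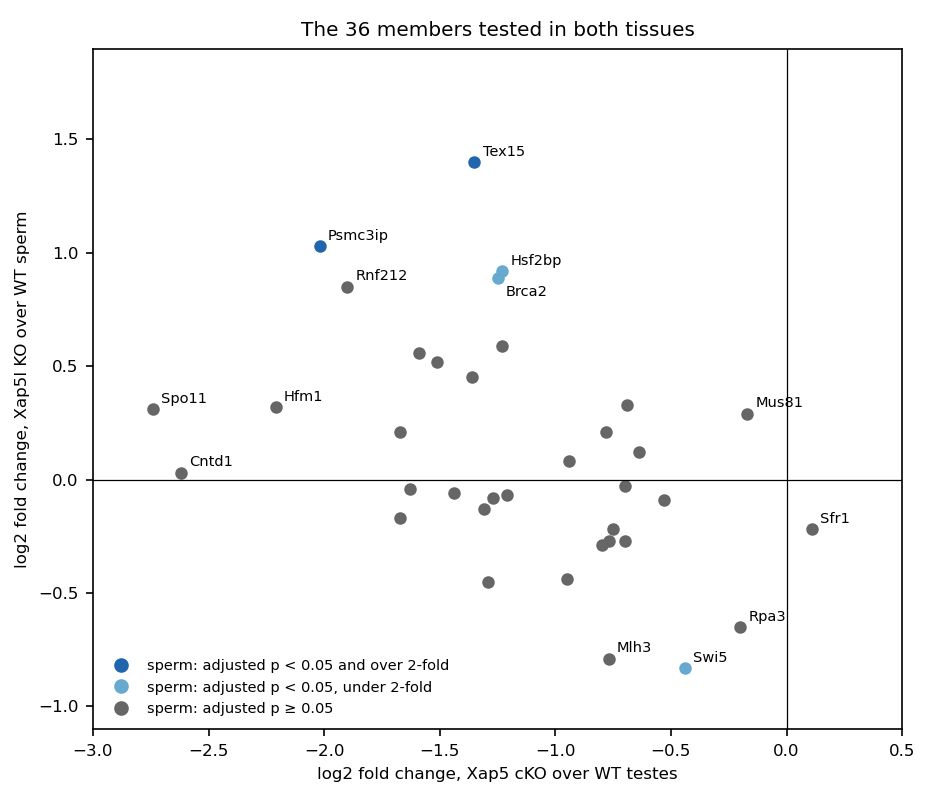
Log2 fold change in Xap5l KO over WT sperm (vertical axis) against that in Xap5 cKO over WT testes (horizontal axis) for the 36 members tested in both tissues, a point per gene. Most points lie left of 0 in testes and scatter around 0 in sperm, and Tex15 and Psmc3ip stand out upward at 1.40 and 1.03.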

How the data were processed

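Poly(A) RNA was sequenced by the authors as paired reads of 150 bp, which were trimmed with Trimmomatic 0.36 and mapped to GRCm38 with HISAT2 2.1.0, as their methods and the submitters' processing notes state. The deposited values are whole-number counts per gene, without normalization, in 1 table per tissue. The counting tool, the treatment of reads with several matches and the use of strand are not given in the sources used here. Each table was filtered with filterByExpr, scaled by TMM and tested with edgeR 4.0.16 (quasi-likelihood test, Benjamini-Hochberg adjustment over all genes tested, genotype as the only term) in R 4.3.3. Genes were called at an adjusted p under 0.05 and a fold change above 2. Each SE was derived as the absolute log2 fold change divided by the square root of the test's F statistic. The 95% intervals used that SE and the t distribution at the test's degrees of freedom. Levels per length used the exonic length of GENCODE vM21. On simulated data, 95.4% of 197 genes changed 4-fold were recovered among 16821 genes for the testis design and 89.5% of 190 among 20945 for the sperm design. The simulated spread followed the trend over genes, without genes or libraries of unusual spread, and changes under 4-fold were not simulated.

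The members and all lists (8 roles, 60 further recombination genes, 10 sets of cell type markers) were chosen with earlier results of these data known. Every member was named, with counts per library for called members, Spo11, Dmc1 and the most abundant member of each role. Brca2, Hsf2bp, Swi5 and M1ap-2 were added after their values were seen, as were the ratios to Dmc1. Same-numbered libraries of the genotypes were not treated as pairs. Alternatives were another filter, scaling, tool (DESeq2 1.42.0), threshold or block, and leaving out each library. Summing entries of a gene and leaving out mitochondrial genes were chosen after seeing the data.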

Additional observations from a re-analysis of the deposited data

How the results depend on the processing

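In testes, the 23 members called lower kept their call under every filter, scaling and tool, in the replicate block and without any of the 6 libraries. Without the fold threshold the counts rose to 36 members and 48 further recombination genes lower, and over the whole table to 4734 genes lower and 4202 higher. Leaving out 1 library gave 23 to 24 members lower (Atm was gained without Xap5 cKO replicate 1) and medians from -1.31 to -1.21.

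In sperm, the 2 members called higher depended on the libraries. Leaving out 1 library gave 0 to 4 members, 0 to 6 further recombination genes higher and 0 to 1 lower, medians of -0.02 to 0.2, and 1 to 2402 genes higher and 1 to 443 lower over the whole table. The count of members was 4 without WT replicate 1 or Xap5l KO replicate 3 and 0 without any other single library. At an adjusted p under 0.01, edgeR called 0 genes in either direction, members and further genes included, where 2385 genes were higher and 605 lower by more than 2-fold at an unadjusted p under 0.05. Library size alone gave 1 member higher, 0 further genes higher, 0 lower and 149 genes lower in all. Without the fold threshold 4 members were higher and 1 lower, with 3 further genes higher and 643 genes lower in all. With no filter on low counts 1 member was lower, an entry of Spata22 with 23, 0 and 12 counts in WT and 0 in every Xap5l KO library, and 3 further genes were higher. Requiring at least 10 counts in every library also gave 3 further genes higher. DESeq2 gave 4 further genes higher.

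Replicate numbers were not taken as pairs. The correlation of same-numbered libraries' deviations was 0.01, -0.03 and -0.03 in testes and 0.17, -0.02 and -0.12 in sperm. Libraries with unlike numbers gave -0.06 to 0.08 in testes and -0.18 to 0.24 in sperm, a range that held the same-numbered values. With 3 libraries per genotype these correlations cannot exclude pairing. The replicate block left 23 members lower in testes and 2 higher in sperm, and changed the sperm counts to 147 genes lower in all and 0 further recombination genes higher. Low counts limit what can be said of Dmc1, Tex11, Rnf212, Rec114, Mnd1 and Meiob in sperm, which had at most 50 counts in any library.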

Other observations

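Spo11 and Dmc1 stood in another proportion in sperm than in testes. Counts of Spo11 per count of Dmc1 were 7.62, 4.59 and 5.25 in WT sperm against 9.43, 9.6 and 4.65 in Xap5l KO sperm, with overlap of the genotypes. In WT testes they were 0.481, 0.545 and 0.483. The sperm ratios rest on 14 to 37 counts of Dmc1.

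Of the further recombination genes, Chek1 (log2 fold change 0.82, edgeR adjusted p = 0.0408) and Trp53bp1 (0.89, edgeR adjusted p = 0.0472) also passed the test in sperm under 2-fold. Trp53bp1, a damage response adaptor, had 421, 831 and 528 counts in WT against 963, 1698 and 1355 in Xap5l KO sperm, while in testes it gave -0.24.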
